A study of Mus musculus with 8 samples.

Results

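The transcription factors *Atoh1*, *Pou4f3*, *Gfi1*, *Barhl1*, *Lhx3*, *Insm1* and *Ikzf2* were followed in freshly isolated cells of the neonatal mouse cochlea. They were selected by gene symbol in the NCBIM37 annotation (the mm9 genome), and all 7 were found among the 36536 genes counted. The libraries came from sorted cochlear cells of *Lfng-EGFP* BAC transgenic mice (B6;FVB-Tg(Lfng-EGFP)HM340Gsat/Mmucd) at postnatal day 1 (P1) and postnatal day 6 (P6). At each age the most strongly fluorescent (GFP+) fraction was set beside the GFP- fraction, which made 4 groups with 2 libraries each, and all cells were sorted straight after dissection, with no culture and no agent. The *Lfng* transgene marks Deiters' cells, outer pillar cells, and the border and inner phalangeal cells around inner hair cells, so GFP+ cells are mainly supporting cells. Cells of low brightness were left out of both fractions, and the study held these to be likely inner pillar cells and inner hair cells, which carry the transgene weakly. The dissection also differed with age, since the lateral wall was separated at P1 and only partially removed at P6, so age and dissection cannot be told apart.

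Hair cells and supporting cells of the organ of Corti descend from common *Sox2*-expressing progenitors. *Atoh1*, a basic helix-loop-helix (bHLH) factor, starts hair cell differentiation, and Notch signalling keeps it silent in the neighbouring supporting cells through the Hes and Hey repressors. *Pou4f3* (POU homeodomain), *Gfi1* (zinc finger) and the homeodomain factors *Barhl1* and *Lhx3* act in the differentiating hair cell, where the first 3 are needed for its survival. *Insm1* and *Ikzf2* are zinc finger factors of outer hair cells, *Insm1* early in their development and *Ikzf2* (Helios) during their maturation.

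The 8 libraries held 17769024 to 67695039 counts on genes. Levels are given in CPM, the count of a gene scaled to a common total of counts on genes, and where genes are compared with each other as CPM per kilobase of exon (RPKM). The test of a change was edgeR's quasi-likelihood test, run over all genes above a minimum count. A gene was past the criteria when its Benjamini-Hochberg adjusted p-value (p-adj) was below 0.01 and its fold change above 4, and log2 changes are given with their standard error (SE). The supporting cell markers were past the criteria as higher in the GFP+ fraction for 8 of 8 genes at either age. Of all genes tested, 6.46% were at P1 and 4.88% at P6. The list includes *Lfng*, the gene whose transgene was used for the sort. Of 20 hair cell markers that do not include the 7 factors, none was at 0 in any library. Their summed level was 1971 and 2313 CPM in P1 GFP+ cells and 611 and 665 CPM in P1 GFP- cells, then 1812 and 1857 CPM in P6 GFP+ cells and 453 and 503 CPM in P6 GFP- cells. The summed hair cell markers were thus higher in the fraction labelled by a supporting cell transgene. By Q-PCR the study found the lowest relative level of the hair cell gene *Myo6* in its brightest fraction. In these libraries *Myo6* had a log2 fold change of 0.39 at P1 (p-adj = 0.0315) and -0.19 at P6 (p-adj = 0.511, both by edgeR). Libraries of the same group differed in markers of other cell types. P6 GFP+ replicate 2 was above replicate 1 for Schwann cell markers (2343 against 1104 CPM), mesenchyme markers (9876 against 5207 CPM), macrophage markers (59.3 against 25.4 CPM) and melanocyte markers (96.8 against 40.0 CPM). P1 GFP- replicate 2 was above replicate 1 for neuronal markers (696 against 272 CPM). Granulocyte markers summed to at most 0.732 CPM.

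**Figure D1:**
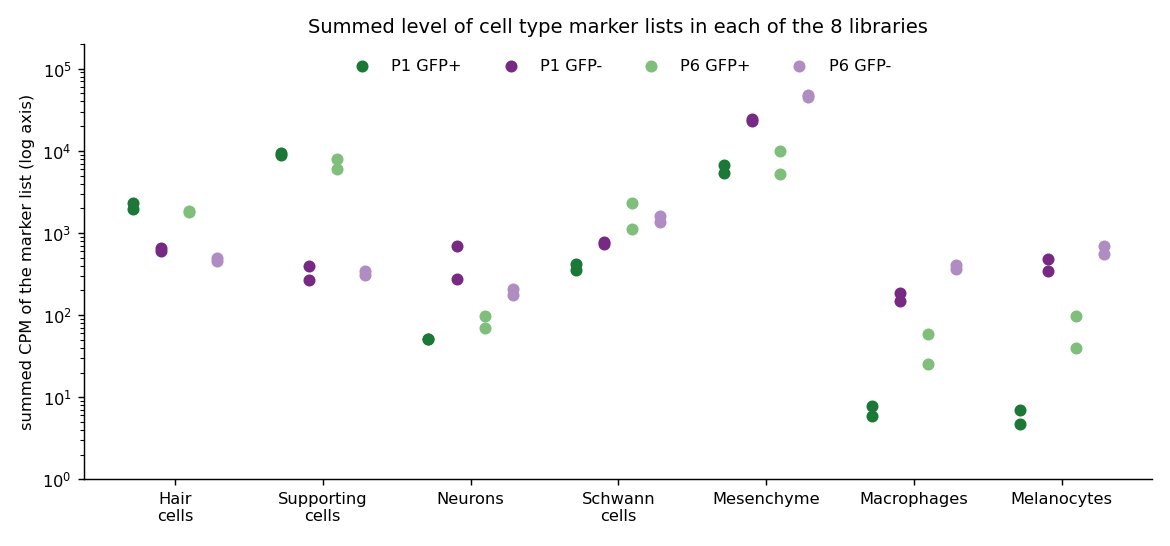
Summed CPM (log axis) of cell type marker lists in each of the 8 libraries, 1 point per library, coloured by group. Hair cell markers were at 1812 to 2313 CPM in the GFP+ libraries and at 453 to 665 CPM in the GFP- libraries, and P6 GFP+ libraries differ from each other for Schwann cell, mesenchyme, macrophage and melanocyte markers.

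At P1, 6 of the 7 factors were higher in GFP+ cells than in GFP- cells past the criteria, by 4.87-fold to 24.3-fold, where 6.46% of all 18682 genes tested were. *Ikzf2* was the exception. The median log2 fold change was 3.40 over the 7 factors and 0.01 over all genes tested. Because these are bulk libraries, fewer cells of a type and less RNA per cell cannot be told apart in any of these comparisons.

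*Atoh1* (ENSMUSG00000073043, chromosome 6, 64679140 to 64681227, plus strand) is a gene with a single exon. Its level at P1 was 7.62 and 9.48 CPM in the GFP+ libraries and 0.343 and 0.396 CPM in the GFP- libraries. The fractions did not overlap, with a log2 fold change of 4.61 (SE 0.26, p-adj = 5.61e-05 by edgeR). Of the 7 factors it showed the largest fold change at P1, although its level per length in GFP+ cells (4.09 RPKM) stood at percentile 58.4 of the 23738 genes with a count in that group.

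*Pou4f3* (ENSMUSG00000024497, chromosome 18, 42554251 to 42555747, plus strand), a target of Atoh1 required for hair cell survival, had the highest level per length of the 7 in P1 GFP+ cells, at 12.2 RPKM. It measured 12.1 and 15.9 CPM in the P1 GFP+ libraries and 0.950 and 1.46 CPM in the P1 GFP- libraries. The difference was 12.2-fold (log2 fold change 3.61, SE 0.27, p-adj = 0.000155 by edgeR). *Gfi1* (ENSMUSG00000029275, chromosome 5, 108145674 to 108155056, minus strand), a transcriptional repressor, measured 9.40 and 11.9 CPM in the GFP+ libraries against 0.844 and 1.39 CPM in the GFP- libraries (log2 fold change 3.32, SE 0.29, p-adj = 0.000280 by edgeR). *Gfi1* shares 101 of its 3249 exon bases with the lincRNA *A430072P03Rik* on the other strand, and the library kit does not mark strand, but that lincRNA had at most 6 counts in any library. Both factors thus separated the fractions with no overlap between libraries.

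*Barhl1* (ENSMUSG00000026805, chromosome 2, 28763199 to 28772188, minus strand) measured 18.9 and 27.8 CPM in the P1 GFP+ libraries against 2.67 and 1.92 CPM in the P1 GFP- libraries. Per length it came next after *Pou4f3* in P1 GFP+ cells, at 5.98 RPKM. Its log2 fold change was 3.46 (SE 0.27, p-adj = 0.000160 by edgeR). *Lhx3* (ENSMUSG00000026934, chromosome 2, 26055732 to 26063769, minus strand) gave 8.42 and 12.3 CPM in the GFP+ libraries and 0.950 and 1.13 CPM in the GFP- libraries (log2 fold change 3.40, SE 0.27, p-adj = 0.000174 by edgeR). *Pou4f3*, *Gfi1*, *Barhl1* and *Lhx3* lay within 9.97-fold to 12.2-fold at P1.

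*Insm1* (ENSMUSG00000068154, chromosome 2, 146047657 to 146050752, plus strand) was low in every library. It had 52 and 30 counts in the P1 GFP+ libraries (1.13 and 1.21 CPM) and 9 and 17 counts in the P1 GFP- libraries (0.238 and 0.269 CPM). The log2 fold change was 2.28 (SE 0.35, p-adj = 0.00275 by edgeR), and with either P1 GFP+ library left out it was not past the criteria, which left 5 of the 7 factors. *Ikzf2* (ENSMUSG00000025997, chromosome 1, 69577788 to 69732534, minus strand) behaved differently, with 7.33 and 8.72 CPM in the GFP+ libraries and 8.97 and 6.78 CPM in the GFP- libraries. These values overlapped, and the log2 fold change of 0.13 (SE 0.21, p-adj = 0.634 by edgeR) was -0.08 when P1 GFP- replicate 2 was left out. Per length, *Ikzf2* (0.837 RPKM) came next after *Pou4f3* (1.05 RPKM) among the 7 in P1 GFP- cells, while in P1 GFP+ cells (0.852 RPKM) it was above *Insm1* (0.378 RPKM) alone.

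The hair cell markers moved with the 6 factors at P1. Of 20, 14 passed the test (p-adj below 0.01) as higher in GFP+ cells, where 16.6% of all genes did, 11 of them were past the criteria, and 0 were lower. The list median log2 fold change was 2.41. The largest changes among them were in *Ush1c* (harmonin, a scaffold of the tip link, log2 fold change 4.75), *Otof* (otoferlin, of the ribbon synapse, 3.39), *Loxhd1* (3.37) and *Chrna10* (a subunit of the efferent acetylcholine receptor, 3.34). The 6 markers that did not pass had changes in both directions. *Calb2* had a log2 fold change of -1.22 (p-adj = 0.0580) and *Pvalb* one of -0.77 (p-adj = 0.193), *Slc17a8* one of -0.02, *Tmc1* one of 0.10, *Myo6* one of 0.39 and *Slc26a5* one of 2.18 (p-adj = 0.0167, all by edgeR). The part of the hair cell markers in the result for the 6 factors was not tested.

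**Figure D2:**
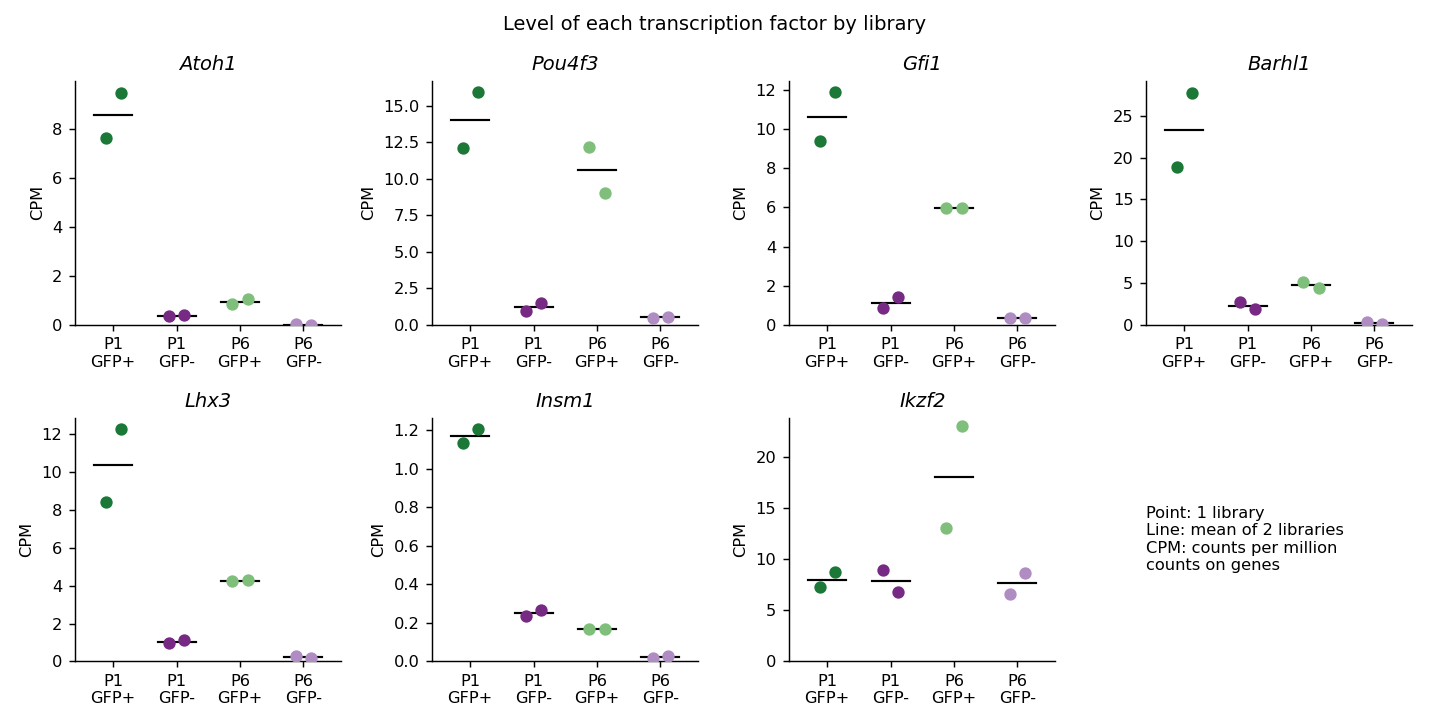
CPM (linear axes from 0) of the 7 transcription factors in each of the 8 libraries, 1 panel per gene, with the mean of each group as a line. In 5 factors the order of the group means is P1 GFP+, P6 GFP+, P1 GFP-, P6 GFP-, *Insm1* has P1 GFP- above P6 GFP+, and *Ikzf2* is highest in P6 GFP+ cells (13.1 and 23.1 CPM).

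At P6, *Atoh1*, *Pou4f3*, *Gfi1*, *Barhl1* and *Lhx3* were again higher in GFP+ cells past the criteria. These were 5 of the 6 factors tested, where 4.88% of all 18294 genes tested were past the criteria in that direction, and the median log2 fold change was 4.31 over the 6 and -0.02 over all genes. *Pou4f3* measured 12.2 and 9.01 CPM in the GFP+ libraries and 0.470 and 0.547 CPM in the GFP- libraries (log2 fold change 4.36, SE 0.34, p-adj = 0.00125 by edgeR). *Gfi1* measured 5.97 and 5.96 CPM against 0.340 and 0.355 CPM, with a log2 fold change of 4.08 (SE 0.32, p-adj = 0.00134 by edgeR). For both genes the 2 libraries of each fraction lay close together in comparison with the gap between the fractions. *Barhl1* gave 5.06 and 4.39 CPM in the GFP+ libraries and 0.340 and 0.103 CPM in the GFP- libraries (log2 fold change 4.40, SE 0.58, p-adj = 0.00503 by edgeR). *Lhx3* gave 4.22 and 4.29 CPM against 0.276 and 0.162 CPM (log2 fold change 4.26, SE 0.41, p-adj = 0.00215 by edgeR).

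*Atoh1* had 15 and 31 counts in the P6 GFP+ libraries (0.844 and 1.04 CPM), and 1 and 0 counts in the P6 GFP- libraries. A count of 0 in P6 GFP- replicate 2 allows a level of up to 0.0443 CPM (3 counts). The summed counts gave a ratio of GFP+ to GFP- of 125, with an exact 95% interval of 21.3 to 5040 that covers counting error only, and p-adj was 0.00410 by edgeR. *Insm1* was too low to be tested, with 3 and 5 counts in the GFP+ libraries and 1 and 2 in the others, a ratio of 7.24 (exact 95% counting interval 1.74 to 42.4). *Ikzf2* had 13.1 and 23.1 CPM in the P6 GFP+ libraries and 6.58 and 8.72 CPM in the P6 GFP- libraries. The groups did not overlap, but its log2 fold change of 1.23 (SE 0.32, p-adj = 0.0335 by edgeR) was not past the test.

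The calls at P6 depended on the pair of GFP- libraries. With P6 GFP- replicate 1 or replicate 2 left out, 0 factors were past the criteria, and 359 and 0 genes of the whole table were called higher in GFP+ cells in place of 892, and the spread was then estimated from the GFP+ libraries alone. Without replicate 1 the log2 fold change was 8.22 for *Atoh1* and 5.52 for *Barhl1*, and without replicate 2 it was 5.57 and 3.76, while *Pou4f3*, *Gfi1* and *Lhx3* lay between 3.91 and 4.74. With P6 GFP+ replicate 2 left out, the library with more RNA of other cell types, the same 5 factors had log2 fold changes of 4.11 to 6.38. That of *Ikzf2* was then 0.79, and without P6 GFP+ replicate 1 it was 1.62. With the DESeq2 test *Ikzf2* had a log2 fold change of 1.26 and passed (p-adj = 0.00301). That test called 1049 genes of the whole table higher in GFP+ cells past the criteria, in place of 892. The fold change of *Ikzf2* stayed below 4 in these settings. Of the 20 hair cell markers, 15 passed the test at P6 as higher in GFP+ cells, where 7.72% of all genes did, 13 were past the criteria and 0 passed as lower. They were led by *Ocm* (oncomodulin, a calcium buffer of outer hair cells, log2 fold change 5.36), *Chrna10* (4.64), *Strc* (stereocilin, 4.55) and *Chrna9* (4.52). Their part in the result for the 5 factors was not tested.

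**Figure D3:**
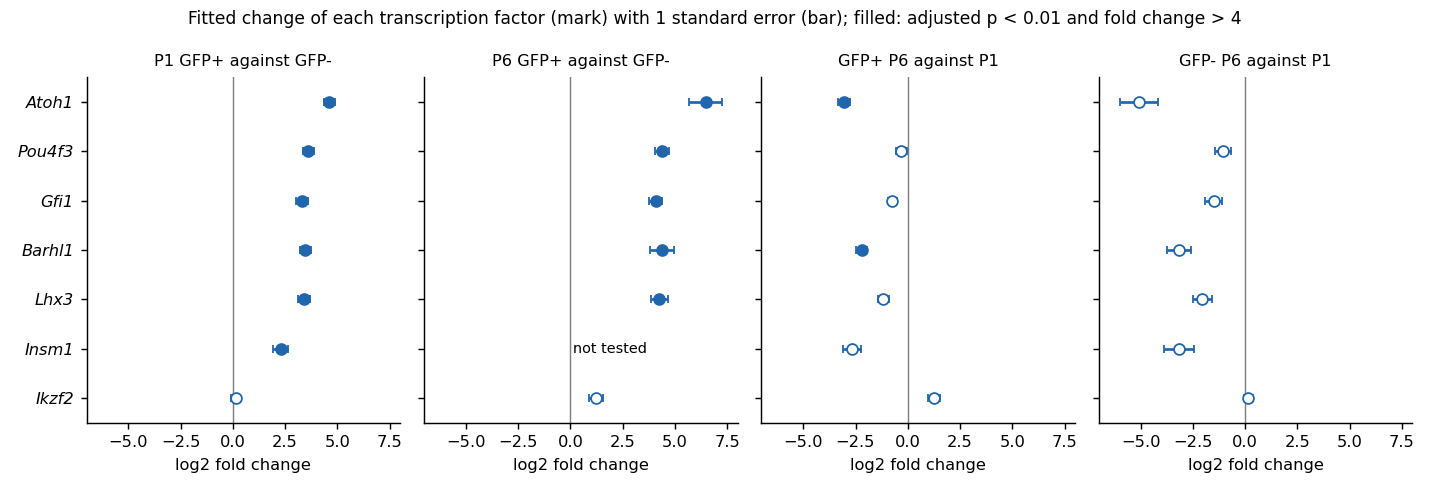
Log2 fold change (x axis) of the 7 transcription factors in the 4 comparisons, with 1 standard error as a bar. Filled marks are past the criteria. In the comparison of fractions these are 6 factors at P1 and 5 at P6, and between the ages they are *Atoh1* and *Barhl1* in GFP+ cells and 0 in GFP- cells.

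Between P1 and P6, 2 of the 7 factors fell in GFP+ cells past the criteria, *Atoh1* and *Barhl1*, where 0.93% of all 17213 genes tested were called higher at P1. This comparison and those of the fractions share the same libraries. *Atoh1* fell from 7.62 and 9.48 to 0.844 and 1.04 CPM, a log2 fold change of -3.07 (SE 0.29, p-adj = 0.00457 by edgeR). *Barhl1* fell from 18.9 and 27.8 to 5.06 and 4.39 CPM, with a log2 fold change of -2.21 (SE 0.26, p-adj = 0.00762 by edgeR). With P1 GFP+ replicate 2 left out, 0 factors were past the criteria, and with either P6 GFP+ library left out there were 3, *Insm1* being added. Over the whole table these fits called 55, 335 and 611 genes lower at P6 in place of 160. With p-adj below 0.05 and no fold criterion, 4 factors were called lower at P6 (*Atoh1*, *Barhl1*, *Insm1* and *Lhx3*), where 8.31% of all genes were, and *Ikzf2* was called higher, where 12.1% were.

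The other factors were not past the test in GFP+ cells. The median log2 fold change over the 7 was -1.18, and 6 had an unadjusted p below 0.05, of which 5 were higher at P1, where 17.1% of all genes were. *Insm1* went from 52 and 30 counts to 3 and 5 counts, a log2 fold change of -2.68 (SE 0.43, p-adj = 0.0161 by edgeR). *Lhx3* had a log2 fold change of -1.18 (p-adj = 0.0370) and *Gfi1* one of -0.74 (p-adj = 0.0726), both by edgeR and both with P1 libraries above P6 libraries. *Pou4f3* was the factor with the smallest change, with overlapping libraries and a log2 fold change of -0.31 (SE 0.25, p-adj = 0.418 by edgeR). *Ikzf2* was the one factor with higher levels at P6, where its log2 fold change of 1.26 (SE 0.30, p-adj = 0.0424 by edgeR) was not past the test. Nor did *Ikzf2* pass with DESeq2 size factors (p-adj = 0.0409), library totals (0.0578) or all 8 libraries in the fit (0.0146, all by edgeR). It passed with the DESeq2 test (p-adj = 0.00187) and with no filter on low counts (p-adj = 0.000229 by edgeR). Over the whole table these settings called 778 and 1019 genes higher at P6 past the criteria, in place of 281. The log2 fold change of *Ikzf2* was 1.60 without P6 GFP+ replicate 1 and 0.84 without replicate 2.

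A ratio of genes within a library does not depend on how libraries are scaled. In RPKM, *Atoh1* was at 0.346 and 0.327 of the level of *Pou4f3* in the P1 GFP+ libraries and at 0.0381 and 0.0633 in the P6 GFP+ libraries. *Barhl1* went from 0.460 and 0.513 to 0.122 and 0.143 of the *Pou4f3* level. *Lhx3* went from 0.266 and 0.294 to 0.132 and 0.181, and *Gfi1* from 0.275 and 0.264 to 0.173 and 0.233. All of these ratios were lower in both P6 libraries than in both P1 libraries, and that of *Ikzf2* was higher, at 0.0739 and 0.0667 against 0.131 and 0.312. In the sum over the 7 factors, *Pou4f3* made up 40.7% and 40.1% in P1 GFP+ cells and 62.4% and 51.6% in P6 GFP+ cells, while *Atoh1* went from 14.1% and 13.1% to 2.38% and 3.26%. No test was run on the ratios and shares.

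**Figure D4:**
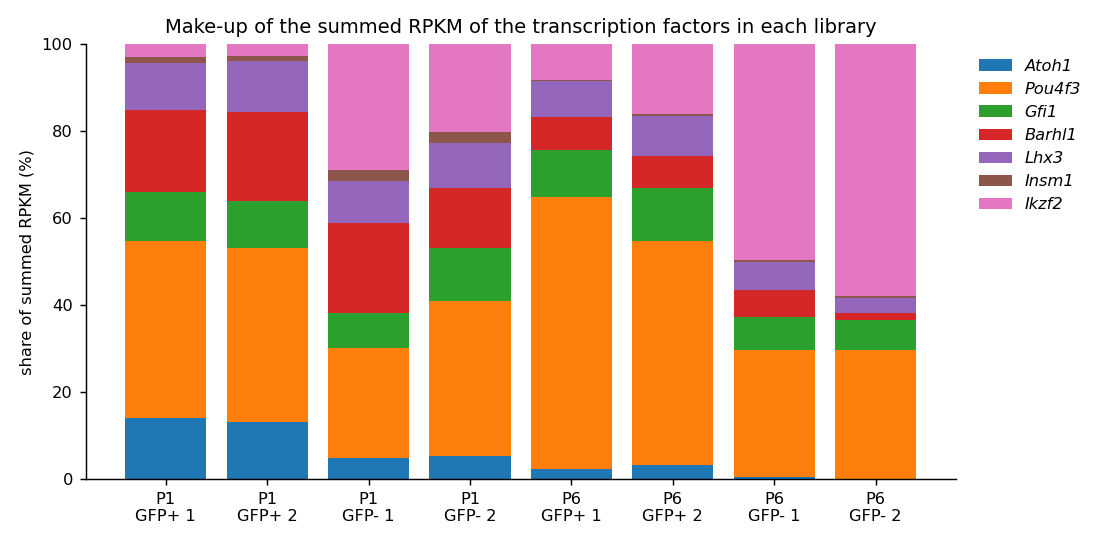
Share (%) of each factor in the summed RPKM of the 7 transcription factors, 1 bar per library. *Atoh1* takes 14.1% and 13.1% of the P1 GFP+ bars and 2.38% and 3.26% of the P6 GFP+ bars, and *Ikzf2* takes 49.7% and 57.8% of the P6 GFP- bars.

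The hair cell markers as a list did not move with *Atoh1* and *Barhl1* over this period. In GFP+ cells, 2 of 20 passed the test as higher at P6 (2.86% of all genes did), *Ocm* (log2 fold change 7.04) and *Slc26a5* (prestin, the motor protein of outer hair cells, 4.32), and 2 as lower (1.95% of all genes did), with a median log2 fold change of -0.14 over the list. The lower ones were *Myo7a* (-1.73) and *Myo15* (-1.41), myosins of the hair bundle, named here after their values were seen. Without P6 GFP+ replicate 2, 4 markers passed the test as higher and 7 as lower, in a fit where 22.5% and 20.7% of all genes did. With all 4 libraries, markers of other cell types had median log2 fold changes of 3.09 (Schwann cells), 2.78 (mesenchyme), 2.39 (macrophages) and 5.0 (melanocytes). Of the Schwann cell and mesenchyme markers 0 of 5 each passed the test as higher at P6, where 2.86% of all genes did. Among macrophage markers 1 of 5 passed, and among melanocyte markers 1 of 3 tested. The Schwann cell markers went from 359 to 417 CPM at P1 to 1104 to 2343 CPM at P6. Mesenchyme markers overlapped between the ages, at 5313 and 6690 CPM at P1 and 5207 and 9876 CPM at P6. The part of these lists in the change of the 2 factors was not tested.

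The sequence before the start of both genes that fell is shown because bHLH factors of opposite effect act on such sites. Activators such as Atoh1 with its E-protein partners bind E-boxes (CANNTG), and Hes and Hey repressors bind N-boxes (CACNAG) and class C sites (CACGCG). The 250 bases before the RefSeq start (build GRCm38.p6, another build than that of the counts) were searched on both strands, and matches are in capitals, 5′ to 3′ on the strand of the gene. The *Atoh1* window is chr6:64728875-64729124 on the plus strand and the *Barhl1* window chr2:28916669-28916918 on the minus strand.
Atoh1: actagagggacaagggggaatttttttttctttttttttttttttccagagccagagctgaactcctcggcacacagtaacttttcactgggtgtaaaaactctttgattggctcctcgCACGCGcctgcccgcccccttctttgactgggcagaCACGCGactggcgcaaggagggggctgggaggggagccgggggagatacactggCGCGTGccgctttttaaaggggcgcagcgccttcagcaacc
Barhl1: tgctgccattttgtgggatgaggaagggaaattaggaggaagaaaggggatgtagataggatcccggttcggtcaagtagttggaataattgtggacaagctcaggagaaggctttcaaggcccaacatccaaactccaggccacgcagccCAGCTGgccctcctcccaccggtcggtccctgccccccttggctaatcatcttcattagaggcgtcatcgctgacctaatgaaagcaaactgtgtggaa
The *Atoh1* window held 3 class C sites, starting 131, 95 and 41 bases before the start, and 0 E-boxes and 0 N-boxes. At least 1 class C site was found in 7.62% of all 32851 windows of this length and 3 or more in 0.225%. The *Barhl1* window held 1 E-box, with the letters CAGCTG, 99 bases before the start, and 0 matches to the other motifs. That E-box was in 13.0% of all windows, and any E-box in 66.2%. A second *Barhl1* window, before a start further downstream, held the same E-box 15 bases before that start. The search covered windows of 4 of the 7 factors, *Atoh1*, *Barhl1*, *Gfi1* and *Lhx3*. The remaining factors were left out of it, so it says nothing on their sites. Both *Gfi1* windows held 1 E-box each, and of the *Lhx3* windows 1 held an E-box and the other 2 N-boxes. A match describes the letters only.

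In GFP- cells, 0 of the 7 factors were past the criteria between P1 and P6 in edgeR's test, where 0.418% of all 18920 genes tested were called higher at P1. At an unadjusted p below 0.05 there were 6, all with higher levels at P1, where 16% of all genes were, and DESeq2's test called 1, *Barhl1*, where it called 0.988% of all genes. With p-adj below 0.05 and no fold criterion 5 were called lower at P6, where 7.87% of all genes were. *Barhl1* went from 2.67 and 1.92 to 0.340 and 0.103 CPM (log2 fold change -3.17, SE 0.56, p-adj = 0.0105 by edgeR). *Atoh1* went from 13 and 25 counts to 1 and 0 counts, so that P1 was above P6 by a ratio of 48.7 (exact 95% counting interval 8.22 to 1973), with p-adj = 0.0109 by edgeR. Both genes thus missed the p-adj threshold of 0.01 narrowly, and no library of 1 age overlapped those of the other. *Insm1* went from 26 to 3 counts over the group, a ratio of 11.1 (exact 95% counting interval 3.40 to 57.3, p-adj = 0.0260 by edgeR). *Lhx3* had a log2 fold change of -2.05 (p-adj = 0.0220), *Gfi1* one of -1.51 (p-adj = 0.0465) and *Pou4f3* one of -1.06 (p-adj = 0.0980, all by edgeR). *Ikzf2*, at 0.15 (p-adj = 0.685 by edgeR), had overlapping libraries. Of the 20 hair cell markers, 3 passed the test as lower at P6 in GFP- cells. At most 7.87% of all genes did, which is the share with p-adj below 0.05. Past the criteria as lower was 1 marker, where 0.418% of all genes were. As higher 1 passed the test, where 5.04% of all genes did. The median log2 fold change was -0.94 over the hair cell markers and -1.88 over the neuronal markers. Their part in the values of the factors was not tested.

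The order of the factors by their change with age was similar in both fractions, with *Atoh1*, *Insm1* and *Barhl1* at the lower end, then *Lhx3*, *Gfi1* and *Pou4f3*, and *Ikzf2* at the upper end. An interaction term, fitted on the 8 libraries together, tested whether the ratio of GFP+ to GFP- cells changed with age. None of the 7 factors passed this test by edgeR or by DESeq2, where 1.93% of all 19233 genes tested did by edgeR. The log2 difference (P6 minus P1) was above 0 for all 7 factors, between 0.42 for *Insm1* and 1.89 for *Atoh1* (SE 0.84, p-adj = 0.247 by edgeR). *Ikzf2* was the 1 factor with an unadjusted p below 0.05, where 21.2% of all genes were, with a difference of 1.09 (SE 0.40, p-adj = 0.161 by edgeR). The same difference had a median of 1.17 over the hair cell markers, 2.05 over neuronal, 2.28 over mesenchyme and 4.54 over melanocyte markers. It was 1.97 over Schwann cell and 1.26 over macrophage markers, and -0.55 over the supporting cell markers. Of these lists, 1 hair cell and 1 melanocyte marker passed the test, where 1.93% of all genes did. The part of these lists in the values of the factors was not tested.

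Genes that act upstream of the 7 factors or with them were examined as lists. Of 10 upstream and competence factors, 6 passed the test as higher in GFP+ cells at P1, where 16.6% of all genes did. The list median log2 fold change was 1.11. The 4 past the criteria (6.46% of all genes were) were *Sall1* (log2 fold change 5.22), *Sox2* (4.53), *Gata3* (4.18) and *Isl1* (2.01). At P6 5 passed (7.72% of all genes did), led by *Sall1* (4.52) and *Sox2* (3.08). In GFP+ cells the only one of the 10 past the test between the ages was *Sox11*, which is needed with *Sox4* for hair cell production and which fell by 2.80 on the log2 scale. Without P6 GFP+ replicate 2, 5 of the 10 passed as lower at P6, in the fit where 20.7% of all genes did. The E-proteins, which pair with Atoh1 on DNA, were not higher in GFP+ cells. Of 3, *Tcf4* (-0.85) and *Tcf12* (-1.01) were lower at P1, where 20.7% of all genes passed as lower, and 0 passed at P6.

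The repressors and inhibitors of *Atoh1* were high in the same fraction as *Atoh1* itself. All 10 passed the test as higher in P1 GFP+ cells (list median log2 fold change 2.84), where 16.6% of all genes did. Past the criteria were 7, where 6.46% of all genes were, led by *Hes5* (log2 fold change 8.17), *Prox1* (5.45), *Hey1* (4.67) and *Hey2* (3.71). At P6, 6 of 10 were past the criteria, where 4.88% of all genes were. Between P1 and P6 in GFP+ cells, *Hes5* fell (log2 fold change -2.97), as did *Prox1* (-2.25), next to -3.07 for *Atoh1*, and the other 8 did not pass the test, with a list median of 0.01. Of all genes, 1.95% passed the test as lower at P6. With P6 GFP+ replicate 2 left out, repressors passed in either direction, in a fit that also called many more genes over the whole table. In GFP- cells, 4 of the 10 rose (5.04% of all genes did), of which *Id2* (log2 fold change 2.40), an inhibitor of bHLH dimers, was past the criteria. Among 11 other transcription and splicing regulators of hair cells, *Rorb* (4.75) and *Nhlh1* (3.23) were past the criteria as higher in GFP+ cells at P1, and *Rorb* (4.97), *Nhlh1* (3.82) and *Tbx2* (2.03) at P6. Of all genes, 6.46% at P1 and 4.88% at P6 were past the criteria in that direction. The list also held genes that passed the test in the other direction, 2 at P1 and 1 at P6, where 20.7% and 5.19% of all genes did.

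Paralogs of the 7 factors did not pass the test as higher in GFP+ cells. Of 12, 7 could be tested at P1, and 0 passed as higher, where 16.6% of all genes did. *Pou4f1* (log2 fold change -0.02) and *Ikzf5* (0.09) passed in neither direction at P1. At P6 0 of 6 tested passed as higher, where 7.72% of all genes did, and *Pou4f1* was at 1.36 (p-adj = 0.0561 by edgeR). While 20.7% of all genes passed the test as lower, 5 paralogs did. Of these *Pou4f2* (log2 fold change -3.93), *Atoh8* (-3.35), *Ikzf1* (-3.22) and *Ikzf3* (-3.21) were past the criteria, where 11.4% of all genes were in that direction, and at P6 *Ikzf1* (-2.49) and *Atoh8* (-2.27) were, where 3.1% of all genes were. *Ikzf1* and *Ikzf3* are known from lymphoid and myeloid cells, and the 5 macrophage markers were lower in the GFP+ fraction at either age, at 5.99 to 7.90 CPM against 148 to 185 CPM at P1. Their part in the *Ikzf1* and *Ikzf3* result was not tested. Of 12 cofactors of *Gfi1*, *Insm1*, *Lhx3* and *Ikzf2*, the LIM domain binding gene *Ldb2* (-2.27 at P1) was the 1 past the criteria in either fraction comparison, and the list median was -0.01 at P1 and -0.07 at P6.

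**Figure D5:**
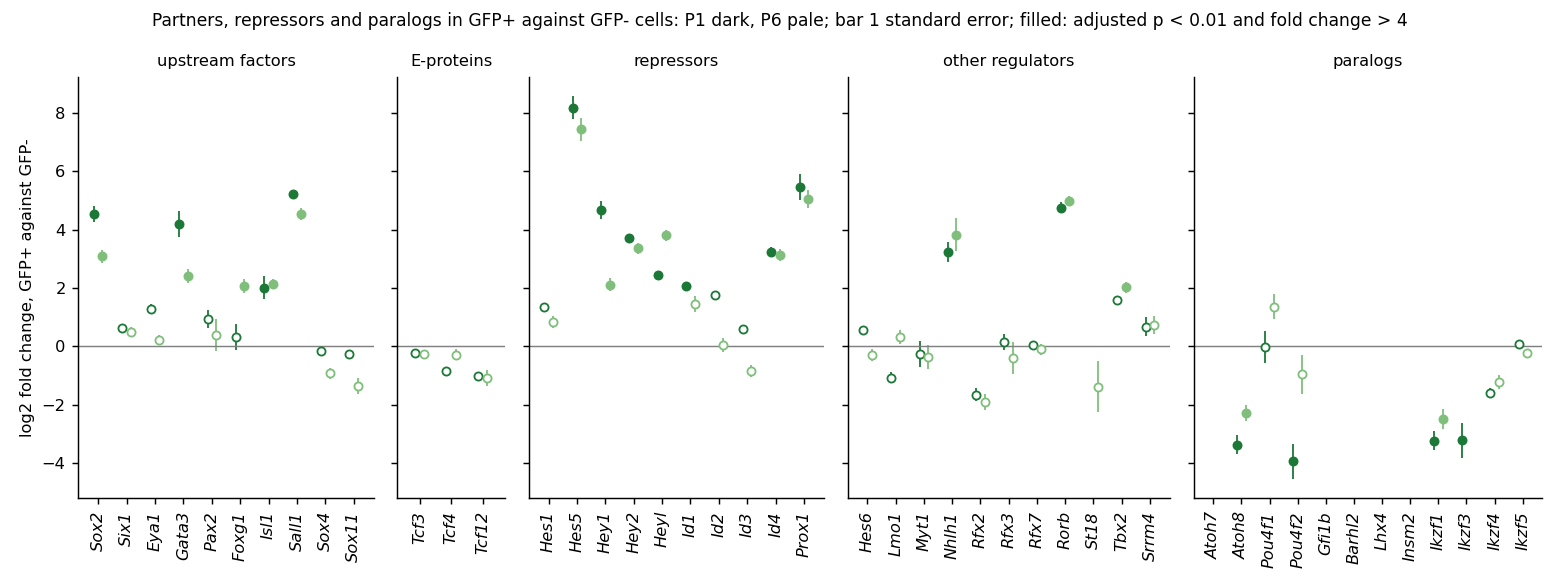
Log2 fold change (y axis) of GFP+ against GFP- cells at P1 (dark) and P6 (pale) for upstream factors, E-proteins, repressors, other regulators and paralogs, with 1 standard error as a bar and filled marks past the criteria. The 10 repressors lie above 0 at P1, with *Hes5* at 8.17, and the tested paralogs *Pou4f2*, *Atoh8*, *Ikzf1* and *Ikzf3* lie below -3 at P1.

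For each factor, the 3 genes with the most similar profile were sought among 15274 genes with a mean of at least 1 CPM, by the root mean square (RMS) difference of centred log2(CPM + 0.5) over the 8 libraries. These are descriptions over libraries of which pairs share a group. For *Atoh1* they were *Muc1* (RMS difference 0.117), *Raver2* (0.192) and *Gm5535* (0.278), and *Raver2* went from 868 and 906 CPM in P1 GFP+ cells to 120 and 119 CPM in P6 GFP+ cells. The 0.5 added to each CPM flattens ratios of low levels, so likeness to *Atoh1* does not cover the size of its fold changes. At P6 *Muc1* had 5.57 and 4.95 CPM in the GFP+ libraries and 1.39 and 1.52 CPM in the GFP- libraries. *Atoh1* had 0.844 and 1.04 CPM against 0.0162 and 0 CPM. For *Pou4f3* the nearest genes were *Gdpd1* (0.152), *Gpr45* (0.181) and *Accn1* (0.195), and for *Gfi1* they were *Slc24a3* (0.155), *Kncn* (0.189) and *Wwc1* (0.189). *Barhl1* was closest to *Fam70b* (0.265), *Hmga2* (0.389) and the hair cell myosin *Myo3a* (0.392). *Lhx3* was closest to *Xirp2* (0.179), *Ntng2* (0.196) and *Gfi1* (0.197), so that 1 of the 7 factors was among the nearest genes of another. *Ikzf2* was closest to *Cobll1* (0.197), *BC026590* (0.214) and *Ttc39a* (0.237), all highest in P6 GFP+ cells. For *Insm1*, at about 1 CPM or less in every library, the pseudocount of 0.5 flattens the profile, and its nearest genes *Spry1* (0.0939), *Hvcn1* (0.108) and *Zfp467* (0.119) follow that flattened profile.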

How the data were processed

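RNA-seq was analysed from sorted cochlear cells of P1 and P6 *Lfng-EGFP* mice, with 2 libraries in each of 4 groups. The authors deposited raw counts per Ensembl gene, made by alignment to mm9 with TopHat and counting with HTSeq, without normalization; the submitters' processing notes name TopHat 1.4.0. The counting mode and strand setting were not given in the sources used here. Reads on no gene, on several genes or at several places (23.8% to 35.3% of those listed) were left out. Libraries held 17769024 to 67695039 counts on genes, so genes with few counts are known with little precision, and intervals and floors cover counting error only. The labels do not say that replicates came from separate animals, so p-values measure the spread between these samples, which may be technical. Replicate libraries differed beyond sampling noise (chi-square over its degrees of freedom 16.3 to 62.7 across genes with at least 20 counts).

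The NCBIM37 annotation gave symbols, positions and exon lengths (34391 of 36536 genes matched), and upstream sequences from RefSeq (GRCm38.p6). Each comparison was fitted on its 4 libraries in edgeR 4.0.16 (R 4.3.3) with filterByExpr (minimum count 10, minimum total 15), TMM normalization, the quasi-likelihood test and Benjamini-Hochberg adjustment over all genes tested, and the interaction of age and fraction on all 8 libraries. SEs were derived from the change and its F statistic. The procedure was tested on simulated data. The alternatives were DESeq2 1.42.0 size factors, library totals, the DESeq2 test, no filter, all 8 libraries in 1 fit, a replicate block, leaving out each library, and p-adj below 0.05 with no fold criterion. A crossed replicate block and list counts without P6 GFP+ replicate 2 or P1 GFP- replicate 2 were added after seeing the data.

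All 7 factors are named. From each list, at most 4 genes with the largest change past the criteria are named, with counts for the rest, and others only where the text says so. The factors, lists and tests were chosen with earlier results of these data known. Figures were drawn with Python 3.11.15 and matplotlib 3.10.9.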

Additional observations from a re-analysis of the deposited data

How the results depend on the processing

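The P1 count (6 factors) lay between 5 and 6 under all alternatives run, and the interaction count stayed at 0. With p-adj below 0.05 and no fold criterion, 5 factors were called between the ages in GFP+ cells in place of 2, and 5 in GFP- cells in place of 0. For GFP- cells between the ages, 2 factors were called with DESeq2 size factors, 1 with the DESeq2 test, 3 with no filter on low counts, 2 with all 8 libraries in the fit, 1 with the replicate block and 3 with the crossed block, and the cause was not tested. In the same order, 102, 187, 288, 68, 62 and 228 genes of the whole table were called lower at P6, in place of 79. With each library left out in turn, the count was 5 to 6 at P1, 0 to 5 at P6, 0 to 3 between the ages in GFP+ cells and 0 to 3 in GFP- cells, with a lone library assumed to vary like the other group. The value that changed sign was that of *Ikzf2*, near 0 in each case. It was -0.0800 at P1 without P1 GFP- replicate 2, in a range of -0.0800 to 0.311 over the libraries left out. Between the ages in GFP- cells it was -0.0388 with library totals, -0.0563 without P1 GFP- replicate 2 and -0.0260 without P6 GFP- replicate 2, in a range of -0.0563 to 0.352. Library totals moved the median of all genes between the ages in GFP- cells to -0.21. Of the alternative values of single factors, 335 kept their direction and call, 20 passed the criteria only under the alternative and 14 only as reported.

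The replicate numbers are shared by the groups, and no label links them. The deviations of same-numbered libraries had correlations across genes of -0.327 to 0.114, which cannot show whether the libraries are linked. With the replicate block the counts were 6 at P1, 5 at P6, 2 and 1 between the ages in GFP+ and GFP- cells, and 0 for the interaction. Because the correlations between the ages within a fraction were under -0.1 (-0.146 in GFP+ and -0.327 in GFP- cells), the numbers were also crossed. This gave 2 factors in GFP+ cells and 3 in GFP- cells. Over the whole table, genes called higher in GFP- cells at P6 numbered 567, and 295 with library totals, 1211 with the DESeq2 test, 1473 with no filter, 1294 with all 8 libraries and 955 with the block. Between the ages in GFP+ cells, 281 genes were called higher and 160 lower at P6, and 778 and 261 with the DESeq2 test. The interaction test called 182 and 190 genes, and 883 and 539 with DESeq2. Depth limits *Insm1* and *Atoh1* in P6 GFP- cells, which held 3 counts and 1 count.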
